A study of Mus musculus with 6 samples.

Results

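The genes described here encode the proteins of both ribosomes of a mouse cell, the cytosolic and the mitochondrial one. They were taken by name: a probe set counted when its single annotated symbol began with Rpl, Rps, Mrpl or Mrps followed by a digit, or by the letter p and a digit, and the Rps6k kinases were left out. This gave 42 of the 5017 genes analysed, 22 cytosolic and 20 mitochondrial, read by 154 of 58919 probe sets. By symbol, 7 cytosolic genes belong to the small subunit and 15 to the large one, against 7 and 13 mitochondrial genes. Total RNA of mouse brain was hybridised to 6 whole-transcript arrays read as exon-level probe sets. The 3 control arrays came from mice of the genotype APPPS1-FVB and the 3 knockout arrays from mice labelled APPPS1-FVBxABCC1. Both groups therefore carry the APPPS1 transgenes, human mutant APP among them, whose *Thy1* promoter drives expression in neurons and which lead to amyloid plaques, on the inbred FVB background. The knockouts also lack *Abcc1*, the gene of an exporter of glutathione conjugates. Age, sex and batch are not in the labels, nor is it stated whether each array is an animal of its own. The p-values therefore reflect the spread among these samples, which may be technical. *Abcc1* itself was not analysed here, so it could not serve to check the labels.

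Cytosolic ribosomes translate the messenger RNAs of the nucleus, and most of their proteins are encoded by single active genes that have left many processed pseudogene copies in the genome. Most of these messenger RNAs begin with a run of pyrimidines, the terminal oligopyrimidine tract, through which mTOR signalling and the protein LARP1 adjust their translation. Mitochondrial ribosomes translate the few proteins encoded by mitochondrial DNA, all of them subunits of the respiratory chain and ATP synthase. Their RNAs come from the mitochondrial genome and their proteins from nuclear genes, imported after translation in the cytosol. The comparison asked how the genes of both groups differ between knockout and control brains that form plaques, and whether the groups differ from each other.

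The promoters of both groups were searched for sequence elements known from such genes, and the following stretches show what the matches look like; no difference in their counts was tested. RefSeq (GRCm38.p6) held a promoter of 300 bases, 250 before to 50 after the annotated start, for 35 of the 42 genes. *Rpl10a* and *Rpl19*, like 4163 genes in all, had more than 1 start listed, and a match at any of a gene's starts was counted. The members' promoters were richer in CpG, with a median of 21 CpG in 300 bases for cytosolic and 23 for mitochondrial genes against 8 for all genes, and the part of this in the motif counts was not tested. A pyrimidine run, here a C followed by at least 5 bases that are each C or T, lay within 10 bases before to 20 after the start in 8 of 18 cytosolic genes, 7 of 17 mitochondrial genes and 24.9% of all 27025 genes of the promoter table. These are the 4 longest runs of the cytosolic group, read on the sense strand, with the run in capitals.
Rpl35, chr2:39005112-39005141, minus strand: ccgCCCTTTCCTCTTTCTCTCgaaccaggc
Rps12, chr10:23787190-23787219, minus strand: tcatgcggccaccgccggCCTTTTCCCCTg
Rpl19, chr11:98026914-98026943, plus strand: tCTCCCCTTCgcagataatgggcggagcct
Rpl38, chr11:114668570-114668599, plus strand: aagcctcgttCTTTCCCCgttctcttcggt

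The 10-base NRF1 motif, with any base allowed at 1 position and named for the nuclear respiratory factor that binds it, was present on either strand of the promoter in 6 of 17 mitochondrial genes, 2 of 18 cytosolic genes and 5.19% of all. The letters AAGATGGC, part of the site of the factor YY1, were present on either strand in 5 of 17 mitochondrial genes, 0 of 18 cytosolic genes and 3.19% of all. The letters CCGGAAG, the core bound by ETS factors such as GABPA, were present on either strand in 7 of 18 cytosolic genes, 4 of 17 mitochondrial genes and 9.93% of all. These matches describe the sequence and are not measured binding. For NRF1 and YY1 the first 3 mitochondrial genes by name with a match are shown, and for ETS the first 3 cytosolic ones. Sequences are on the sense strand, with the match or its reverse complement in capitals, and the ETS stretch of *Rpl19* belongs to another listed start than its pyrimidine run.
Mrpl12, NRF1, chr11:120484546-120484575, plus strand: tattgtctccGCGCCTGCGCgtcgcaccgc
Mrpl30, NRF1, chr1:37890384-37890413, plus strand: tgacgccgctGCGCCTGCGCtgtcttctat
Mrpl32, NRF1, chr13:14613105-14613134, minus strand: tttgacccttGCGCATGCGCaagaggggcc
Mrpl32, YY1, chr13:14613258-14613287, minus strand: cgcgctctGCCATCTTtacccggaaagtcg
Mrpl36, YY1, chr13:73330968-73330997, plus strand: cgtgaccttacGCCATCTTtcttcctggcg
Mrps24, YY1, chr11:5707652-5707681, minus strand: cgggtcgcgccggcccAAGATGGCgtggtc
Rpl19, ETS, chr11:98026659-98026688, plus strand: gacttagcgtgaCTTCCGGctacccagagg
Rpl26, ETS, chr11:68901558-68901587, plus strand: caacttacagaaCCGGAAGtcgcgtgtagt
Rpl35, ETS, chr2:39005241-39005270, minus strand: aggaaggcaggaCTTCCGGgaagcggaggg

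Values below are deposited log2 signals, and a difference is the knockout mean minus the control mean. Array medians of all tested probe sets lay between 7.04 and 7.09, and pairs of arrays correlated between 0.984 and 0.990. A gene is represented by its probe set of highest mean signal, and its gene mean, taken over all its probe sets, is given for a group as a whole and for a single ribosomal or pathway gene where it differs in sign or by 1.5 times or more. A call is an adjusted p below 0.05 in limma with Benjamini-Hochberg adjustment over all probe sets, a test passed by 3 of 58919 probe sets (0.00509%). Of the 154 probe sets of ribosomal protein genes 0 passed, with 5 of 43 cytosolic ones lower and 0 higher at an unadjusted p below 0.05, and 2 of 111 mitochondrial ones lower and 2 higher. Over all probe sets 2.94% were lower and 4.75% higher at that p. All that follows are therefore values and not calls. The markers of brain cells fit the labelled tissue: *Syt1*, *Map2*, *Meg3* and *Camk2b*, the 4 of 17 listed neuronal markers that were measured, had mean signals from 11.92 to 11.97 on the control arrays and 11.90 to 11.98 on the knockout arrays.

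Nearly all cytosolic ribosomal protein genes had lower signals in the knockout, by small amounts. At the representing probe set 21 of 22 were lower and *Rpl23a* was higher, with a median log2 difference of -0.13, or -8.62% in signal. Over all 5017 genes the median was -0.02 and 2843 (56.7%) were lower. The differences ran from -0.23 to 0.13, and the knockout values lay below all control values in 9 of the 22, where 8.37% of all genes did so. All knockout values above all controls occurred in 0 of the 22. At an unadjusted p below 0.05, 3 of 22 were lower and 0 higher, against 3.07% and 1.81% of all genes. By gene mean 21 of 22 were again lower, against 51.4% of all genes, and the median was -0.15. At an unadjusted p below 0.05, 8 of 22 were lower and 0 higher by gene mean, against 6.12% and 7.95% of all genes. All knockout gene means lay below all controls in 6 of 22 and above them in 0, against 8.85% and 11.3% of all genes. The smallest adjusted p of the 22 was 0.632 by representing probe set and 0.215 by gene mean.

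**Figure D1:**
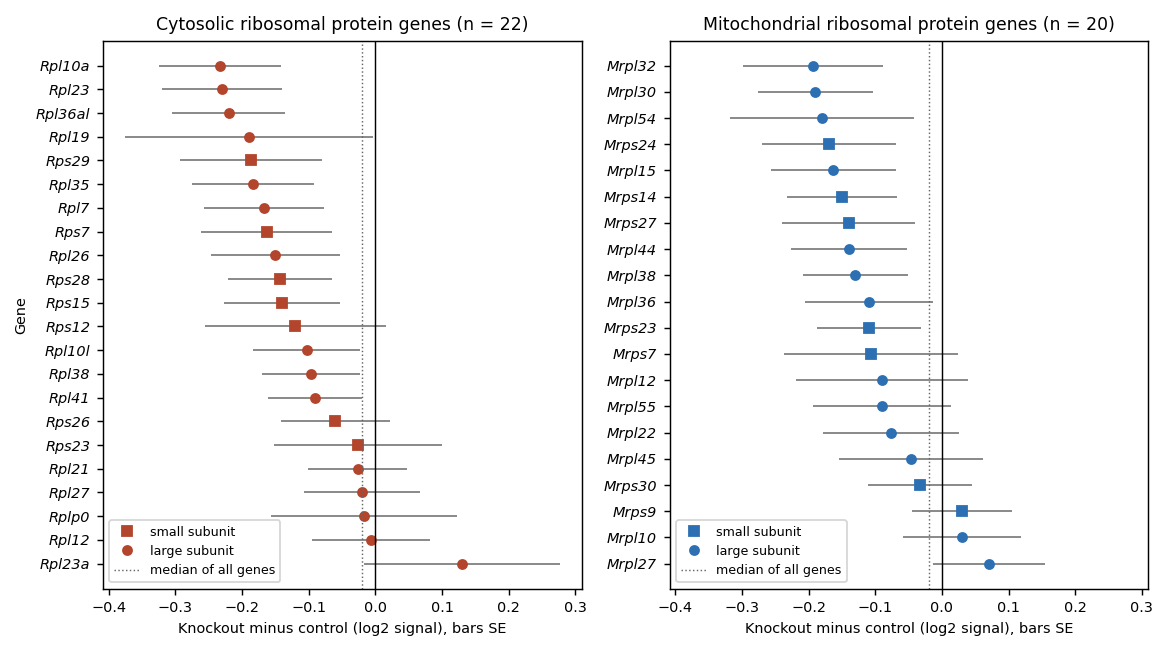
Log2 difference of each ribosomal protein gene at its representing probe set, with the 22 cytosolic genes on the left and the 20 mitochondrial genes on the right. Points are limma estimates from 3 knockout and 3 control arrays, bars are 1 SE, squares mark small and circles large subunit genes, and the dotted line is the median of all genes at -0.02. The points lie left of zero for 21 cytosolic and 17 mitochondrial genes.

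At the representing probe set, the 5 cytosolic genes with the smallest p-values all belong to the large subunit, while by gene mean *Rps7* of the small subunit had the smallest. *Rpl36al*, an autosomal retrogene copy of the X-linked *Rpl36a*, had 9.51, 9.36 and 9.47 on the controls and 9.15, 9.29 and 9.24 on the knockouts. The highest knockout lay below the lowest control, and the log2 difference was -0.22 (SE 0.09, limma adjusted p = 0.632), with -0.19 by gene mean. *Rpl10a*, a protein of the flexible L1 stalk near the exit site of transfer RNA, had 10.55, 10.47 and 10.40 on the controls and 10.15, 10.35 and 10.22 on the knockouts. Its groups did not overlap either, and the difference was -0.23 (SE 0.09, limma adjusted p = 0.635). *Rpl23*, which binds the ubiquitin ligase Mdm2 when free of the ribosome, had 10.78, 10.80 and 10.71 on the controls and 10.42, 10.65 and 10.53 on the knockouts. All knockouts lay below all controls, with a difference of -0.23 (SE 0.09, limma adjusted p = 0.637) and -0.15 by gene mean.

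*Rpl35*, a protein at the mouth of the peptide exit tunnel, had 7.46, 7.33 and 7.33 on the controls and 7.31, 7.12 and 7.14 on the knockouts. Knockout 1 came within 0.02 of the lower controls, and the difference was -0.18 (SE 0.09, limma adjusted p = 0.679). *Rpl7* had 8.62, 8.67 and 8.57 on the controls and 8.48, 8.55 and 8.33 on the knockouts, again without overlap, and a difference of -0.17 (SE 0.09, limma adjusted p = 0.692). Among the other large subunit genes, *Rpl38*, needed for translation of a subset of *Hox* messenger RNAs, and *Rpl41*, the smallest ribosomal protein, had tight replicates and groups that did not overlap. *Rpl38* had 10.93, 10.86 and 10.89 on the controls and 10.80, 10.76 and 10.83 on the knockouts, a difference of -0.10 (SE 0.07) with all 6 probe sets lower. *Rpl41* had 11.22, 11.18 and 11.21 on the controls and 11.12, 11.12 and 11.10 on the knockouts, a difference of -0.09 (SE 0.07) with all 4 probe sets lower. The probe set of *Rpl41* at -0.08 lies away from the others by ID, so it may read a copy. *Rpl26*, another exit tunnel protein, had a difference of -0.15 (SE 0.10). *Rplp0* and *Rpl12*, which form the base of the stalk that recruits elongation factors, were near zero at -0.02 and -0.01 (-0.02 by gene mean for *Rpl12*), as were *Rpl21* at -0.03 and *Rpl27* at -0.02. *Rpl10l*, a copy of *Rpl10* used in testis, was dim, at 4.53, 4.44 and 4.37 on the controls, and differed by -0.10 (SE 0.08).

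For *Rpl19* and *Rpl23a*, proteins at the rim of the exit tunnel that are each read by 1 probe set, the difference rested on 1 array. *Rpl19* had 6.47, 6.25 and 6.37 on the controls and 5.78, 6.27 and 6.47 on the knockouts, so knockout 1 alone lay below every control. Its difference was -0.19 (SE 0.19) and 0.01 without knockout 1. *Rpl23a* had 7.87, 7.82 and 7.72 on the controls and 7.74, 8.24 and 7.82 on the knockouts, a difference of 0.13 (SE 0.15) that was -0.02 without knockout 2.

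All 7 small subunit genes of the cytosolic ribosome had lower values, with a median log2 difference of -0.14 and -0.15 by gene mean. *Rps7* had 10.41, 10.45 and 10.66 on the controls and 10.39, 10.27 and 10.37 on the knockouts at its representing probe set, a difference of -0.16 (SE 0.10). Its other probe set had 5.84, 5.78 and 5.86 on the controls and 5.17, 5.60 and 5.47 on the knockouts. Both were without overlap, the dimmer one differed by -0.41, and its gene mean by -0.29 (SE 0.06, limma adjusted p = 0.215 over all genes). *Rps29*, a small zinc-binding protein, had a difference of -0.19 (SE 0.11), with all 3 of its probe sets between -0.19 and -0.15. *Rps28* had -0.14 (SE 0.08) and *Rps15*, near the decoding site, -0.14 (SE 0.09). *Rps12* had -0.12 (SE 0.14), *Rps26*, which contacts messenger RNA at the exit channel, -0.06 (SE 0.08) and *Rps23*, a protein of the decoding centre, -0.03 (SE 0.13).

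**Figure D2:**
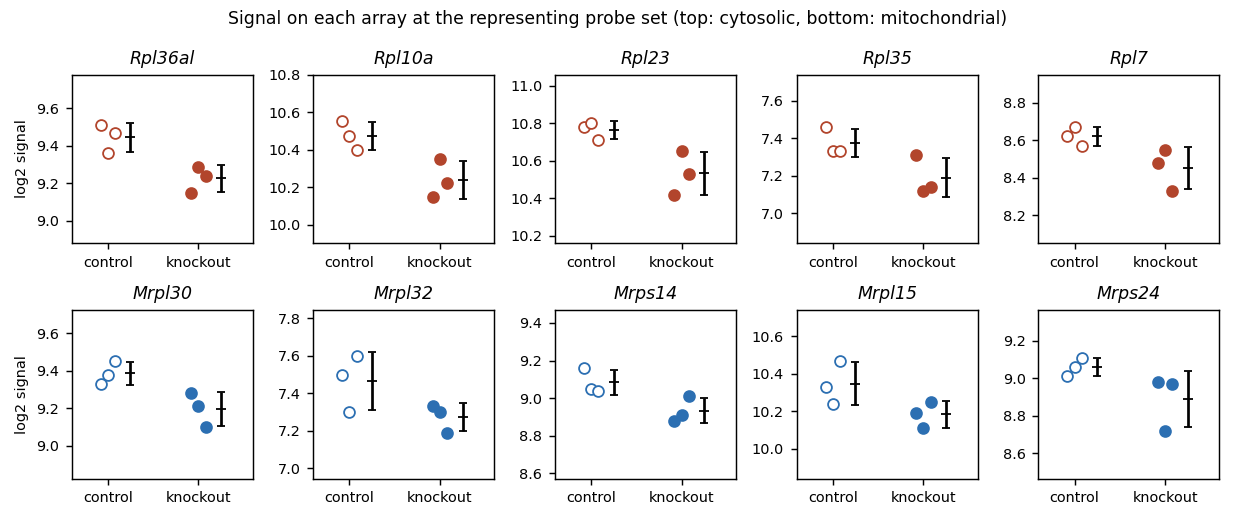
Log2 signal on each of the 6 arrays for the 5 cytosolic (top) and 5 mitochondrial (bottom) genes with the smallest unadjusted p, open circles for controls and filled circles for knockouts. Each vertical axis spans the same 0.9 log2 units at its own level, and the bar beside the points is the mean ± SD of 3 arrays. The groups overlap for *Mrpl32* and *Mrpl15* and are apart in the other 8 panels.

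Most mitochondrial ribosomal protein genes had lower signals as well. At the representing probe set 17 of 20 were lower and 3 higher, with a median log2 difference of -0.11, or -7.34% in signal, and a range from -0.19 to 0.07. All knockout values lay below all control values in 6 of the 20 and above them in 0, against 8.37% and 6.20% of all genes. At an unadjusted p below 0.05 there were 0 in either direction, where 3.07% of all genes were lower and 1.81% higher, so few would be found among 20 genes at that share. The smallest adjusted p was 0.662. By gene mean 16 of 20 were lower, against 51.4% of all genes, and the median was -0.08. At an unadjusted p below 0.05, 2 were lower and 0 higher by gene mean, against 6.12% and 7.95% of all genes. All knockout gene means lay below all controls in 3 of the 20, against 8.85% of all genes.

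Among large subunit genes, *Mrpl30* had 9.33, 9.38 and 9.45 on the controls and 9.28, 9.21 and 9.10 on the knockouts. The groups did not overlap, and the difference was -0.19 (SE 0.09, limma adjusted p = 0.662), with -0.12 by gene mean. *Mrpl32*, which is cut by a protease of the inner membrane before it joins the ribosome, had 7.50, 7.30 and 7.60 on the controls and 7.33, 7.30 and 7.19 on the knockouts. Control 2 lay within the knockouts, and the difference was -0.19 (SE 0.11, limma adjusted p = 0.692) but -0.07 by gene mean. *Mrpl15* had 10.33, 10.24 and 10.47 on the controls and 10.19, 10.11 and 10.25 on the knockouts, a difference of -0.16 (SE 0.09, limma adjusted p = 0.707) with knockout 3 just above control 2. Its 6 probe sets were all lower, from -0.42 to -0.06, and its gene mean differed by -0.22 (SE 0.05, limma adjusted p = 0.215 over all genes). *Mrpl54* had 8.31, 8.43 and 8.68 on the controls and 8.16, 8.23 and 8.49 on the knockouts, groups that overlapped, and a difference of -0.18 (SE 0.14, limma adjusted p = 0.770) but -0.09 by gene mean. It was -0.08 without control 3 and -0.28 without knockout 3.

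*Mrpl38*, read by 10 probe sets, had all 10 lower and a difference of -0.13 (SE 0.08), with its groups apart. *Mrpl44*, a relative of ribonuclease III, differed by -0.14 (SE 0.09), also without overlap, though 2 of its 4 probe sets were not lower and its gene mean was at -0.04. *Mrpl36* differed by -0.11, *Mrpl12*, the stalk protein that contacts translation factors, by -0.09, *Mrpl55* by -0.09 and *Mrpl22* by -0.08. By gene mean *Mrpl12* was at -0.05, *Mrpl55*, with all 7 probe sets lower, at -0.19 and *Mrpl22* at -0.03. *Mrpl45*, which anchors the ribosome to the inner membrane, had -0.05 at its representing probe set but 0.12 by gene mean, with 2 of 9 probe sets lower. *Mrpl27* had 0.07 and *Mrpl10*, at the base of the stalk, 0.03, with -0.09 for *Mrpl10* by gene mean.

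Of the small subunit genes, *Mrps14* had 9.16, 9.05 and 9.04 on the controls and 8.88, 8.91 and 9.01 on the knockouts, without overlap and with a difference of -0.15 (SE 0.08, limma adjusted p = 0.696) and -0.09 by gene mean. *Mrps24* had 9.01, 9.06 and 9.11 on the controls and 8.98, 8.72 and 8.97 on the knockouts, a difference of -0.17 (SE 0.10, limma adjusted p = 0.714) drawn mostly from knockout 2, and -0.04 by gene mean. Of its 4 probe sets 2 were lower. That gene mean includes a dim probe set at 0.16, with 2.09, 2.19 and 1.98 on the controls, where the table begins at 1.69. *Mrps23* differed by -0.11 (SE 0.08), with its groups apart and all 5 probe sets lower, and *Mrps7* by -0.11 (SE 0.13). *Mrps27*, a pentatricopeptide repeat protein, differed by -0.14 at its representing probe set, while another of its 11 probe sets had 5.99, 5.57 and 5.64 on the controls and 6.14, 6.55 and 6.20 on the knockouts, a difference of 0.56 (limma adjusted p = 0.571). Its gene mean was at 0.04. *Mrps9* was at 0.03, and 0.01 by gene mean, and *Mrps30*, whose protein sits in the large subunit despite its symbol, at -0.03.

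**Figure D3:**
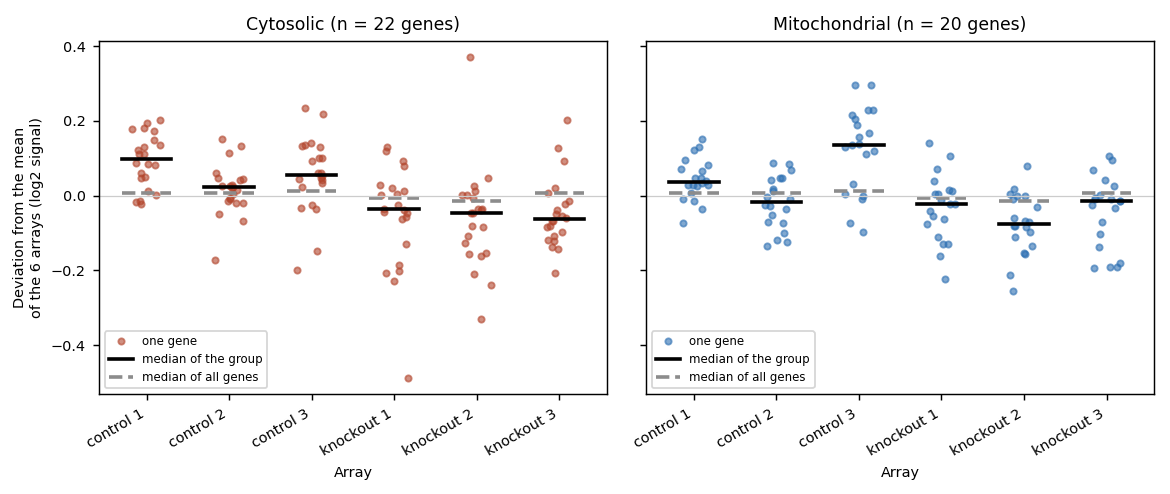
Deviation of each gene's log2 signal from its mean over the 6 arrays, for the 22 cytosolic (left) and 20 mitochondrial genes (right). Points are genes, black bars the group's median on that array and dashed grey bars the median of all 5017 genes. The cytosolic medians run from 0.02 to 0.10 on control arrays and from -0.06 to -0.04 on knockout arrays, while the mitochondrial medians lie between -0.08 and 0.14.

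Array by array, the cytosolic genes separated the groups and the mitochondrial genes did so only in part. The median deviation of the cytosolic genes from their own mean over the 6 arrays was 0.10, 0.02 and 0.06 on control 1, control 2 and control 3, and -0.04, -0.05 and -0.06 on knockout 1, knockout 2 and knockout 3. That of the mitochondrial genes was 0.04, -0.02 and 0.14 on the controls and -0.02, -0.08 and -0.02 on the knockouts. Control 2 thus lay among the knockouts in the mitochondrial group, and control 3 stood highest: 14 of 20 mitochondrial genes had their highest value on it, while 12 of 22 cytosolic genes had theirs on control 1. The lowest value fell on a knockout array for 19 of 22 cytosolic and 17 of 20 mitochondrial genes. Over all genes the medians stayed between -0.02 and 0.01.

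At the representing probe sets, the gap between the groups was small beside the spread of the arrays. The cytosolic median difference was lower than the mitochondrial one by 0.02 log2 units at the representing probe sets (gap -0.02) and by more over gene means (gap -0.07). On single arrays at these probe sets, the cytosolic minus the mitochondrial median deviation was 0.06, 0.04 and -0.08 on the controls. It was -0.01, 0.03 and -0.05 on the knockouts, inside the range of the controls, with an SD of 0.06 within groups. Over gene means it was lower on every knockout than on every control. The cytosolic medians there were 0.107, 0.032 and 0.055 on the controls and -0.050, -0.084 and -0.064 on the knockouts. The mitochondrial ones were 0.036, -0.020 and 0.065 on the controls and -0.019, -0.024 and -0.045 on the knockouts. At the representing probe sets the gap was 0.02 without control 2. Its sign also turned without control 1, without knockout 2 and with members by current symbol. No order between the groups can therefore be read from those probe sets at this number of arrays. With the median over the probe sets of a gene the gap was -0.06. Whether an order holds over these other gene summaries was not tested.

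Of the 43 cytosolic probe sets 42 were lower, with a median log2 difference of -0.12, and of the 111 mitochondrial ones 80 were lower, with a median of -0.07, against 47.2% and a median of 0.01 over all tested probe sets. The knockout values lay below all control values in 13 of 43 and 15 of 111, against 5.52% of all, and above them in 0 of 43 and 2 of 111, against 7.94%. Leaving out the representing probe set of each gene, 21 of 21 cytosolic and 63 of 91 mitochondrial probe sets were lower. Probe sets of 1 gene share its RNA, so they are not independent measurements, and the mitochondrial ones are spread over more exons per gene, with a median of 5 probe sets against 1.5. Some mitochondrial ones were also dimmer, such as 1 of *Mrps9* and 1 of *Mrps24* with control means of 2.24 and 2.09. The dimmest cytosolic one, of *Rps12*, had a control mean of 4.07. The part of signal level in these counts was not tested.

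A further 57 probe sets name a cytosolic ribosomal protein together with other symbols and were not assigned to a gene. They enter no signal or difference of a gene or group above, but they are among all the probe sets fitted and counted on the same arrays. Of these 55 were lower and 2 higher, with a median log2 difference of -0.12, and 13 were lower and 0 higher at an unadjusted p below 0.05, against 2.94% and 4.75% of all probe sets and 38 and 47 of the 820 other probe sets with several symbols. All knockout values lay below all control values in 35 of the 57, where 5.52% of all probe sets and 72 of those 820 did so. Their median deviation was 0.07, 0.04 and 0.08 on the controls and -0.06, -0.05 and -0.06 on the knockouts, so the groups were apart here too. The 23 ribosomal symbols among them include 7 of the 22 cytosolic genes above, so these probe sets are not independent of each other or of those genes. Of the 57, 0 passed the threshold.

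**Figure D4:**
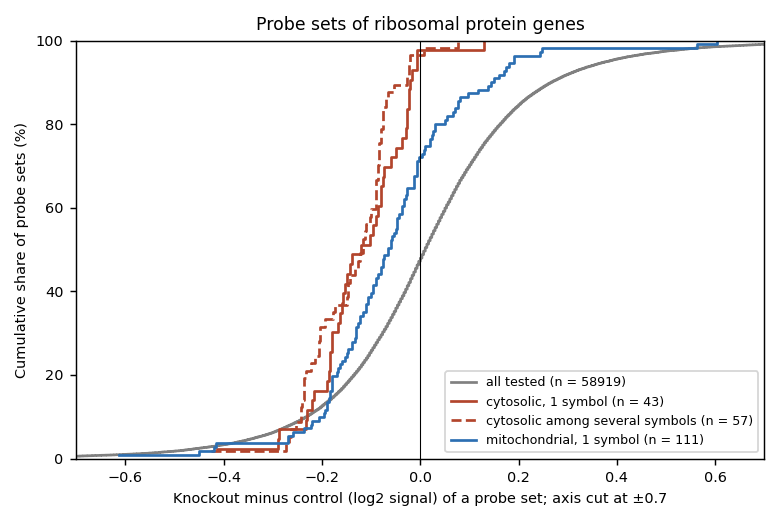
Cumulative share of probe sets against their log2 difference, for all 58919 tested probe sets (grey), the 43 cytosolic (red) and 111 mitochondrial probe sets (blue) with 1 symbol, and the 57 that name a cytosolic ribosomal protein among several symbols (dashed red). Below zero lie 97.7% of the probe sets of the solid red curve, 96.5% of the dashed one, 72.1% of the blue and 47.2% of the grey.

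Related copies bear on what the cytosolic probe sets read. For 6 of the 22 cytosolic genes, *Rpl10a*, *Rpl12*, *Rpl21*, *Rpl35*, *Rplp0* and *Rps28*, the commonest chromosome among the 40 probe sets on either side by ID is not the gene's own, such as chromosome 1 for *Rpl10a* of chromosome 17, and reads from the gene and from a copy cannot be told apart there. Without these 6 genes the median was again -0.13 and 15 of 16 were lower. A copy on the gene's own chromosome would not be found by this comparison. Subunits listed under older names fell outside the naming rule: *Mrpl42* had a difference of -0.06 (SE 0.10) and *Mrpl58*, a peptidyl-tRNA hydrolase built into the mitochondrial large subunit, -0.05 (SE 0.08, limma adjusted p = 0.896) but 0.04 by gene mean. *Mrpl58* had 9.25, 9.16 and 9.27 on the controls and 9.13, 9.21 and 9.19 on the knockouts, which overlapped. With them and 8 copies and pseudogenes under their current symbols, the cytosolic median was -0.10 (26 of 30 lower) and the mitochondrial -0.11 (19 of 22 lower).

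Differences over the whole array varied slightly with gene span and signal, and ribosomal protein genes are short. The cytosolic genes span a median of 2607 bases and the mitochondrial ones 7098 bases, against 18644 for all genes. In the shortest quintile of all genes by span the median log2 difference was -0.03 and in the next -0.04, against 0.01 in the longest. Of the 22 cytosolic genes 20 were in the shortest quintile, where their median was -0.11. By mean signal, the quintile medians of all genes ran from -0.04 in the middle one to 0.01 in the brightest, and the 8 cytosolic genes in the brightest had a median of -0.12. After subtracting the median of all genes in the same quintile of span, the cytosolic median was -0.10 and the mitochondrial -0.09. With quintiles of signal the medians were -0.11 and -0.08.

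**Figure D5:**
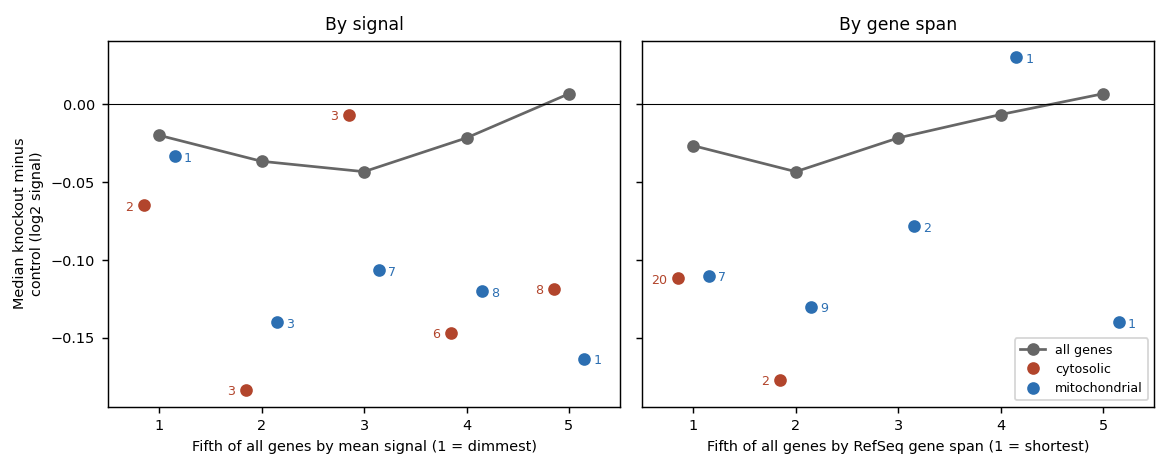
Median log2 difference of all genes (grey) and of the cytosolic (red) and mitochondrial (blue) genes within quintiles of all genes by mean signal (left) and by RefSeq gene span (right). The number beside a coloured point is how many genes it holds. All-gene medians stay between -0.04 and 0.01, and the 20 cytosolic genes of the shortest quintile have a median of -0.11.

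Genes that make or assist ribosomes did not share one direction. Of 46 measured genes of ribosome assembly (131 listed) 29 were lower and 17 higher, with a median of -0.03, near that of all genes. The smallest p was that of *Nvl*, an ATPase that releases assembly factors from the large subunit precursor, with 8.77, 8.70 and 8.77 on the controls and 9.08, 9.37 and 9.11 on the knockouts. Its difference was 0.44 (SE 0.10, limma adjusted p = 0.551), opposite to the ribosomal proteins and with the groups apart, and 0.53 by gene mean. *Ddx52*, a helicase of ribosomal RNA processing, had 8.85, 8.82 and 8.69 on the controls and 8.95, 8.95 and 9.10 on the knockouts, a difference of 0.21 (SE 0.09, limma adjusted p = 0.651) but 0.01 by gene mean. Of 5 measured genes of RNA polymerase I transcription 2 were lower and 3 higher. *Polr2e*, a subunit shared by the 3 nuclear RNA polymerases, had 10.08, 10.08 and 10.06 on the controls and 9.77, 9.86 and 9.77 on the knockouts, a difference of -0.27 (SE 0.07, limma adjusted p = 0.560) but -0.10 by gene mean. *Ubtf*, the factor that opens ribosomal DNA, had 10.75, 10.81 and 10.94 on the controls and 10.89, 10.96 and 10.97 on the knockouts, which overlapped, and a difference of 0.11 (SE 0.09, limma adjusted p = 0.779).

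Translation factors leaned as all genes did. Of 22 measured cytosolic factors and regulators 14 were lower and 8 higher, with a median of -0.03. *Eif2b2*, a subunit of the exchange factor of eIF2, had 9.22, 9.05 and 9.10 on the controls and 8.90, 8.94 and 8.96 on the knockouts, a difference of -0.19 (SE 0.08, limma adjusted p = 0.656) but -0.07 by gene mean. *Rps6kb1*, the kinase that phosphorylates ribosomal protein S6, had 9.68, 9.65 and 9.60 on the controls and 9.71, 10.01 and 9.95 on the knockouts, a difference of 0.25 (SE 0.10, limma adjusted p = 0.650) and 0.16 by gene mean. The groups of both genes did not overlap, and they lay in opposite directions. Of 22 genes of mitochondrial translation and assembly 15 were lower and 7 higher, with a median of -0.04. *Iars2*, the mitochondrial isoleucyl-tRNA synthetase, had 10.26, 10.28 and 10.36 on the controls and 10.11, 10.18 and 10.26 on the knockouts, touching at 10.26, and a difference of -0.12 (SE 0.08, limma adjusted p = 0.751) but -0.04 by gene mean. *Polrmt*, the mitochondrial RNA polymerase, had 9.61, 9.52 and 9.63 on the controls and 9.59, 9.42 and 9.44 on the knockouts, which overlapped, and a difference of -0.10 (SE 0.09, limma adjusted p = 0.789) but -0.01 by gene mean. Of 6 cytosolic tRNA synthetase genes 3 were lower and 3 higher, with overlapping groups for both genes of smallest p. *Mars1*, the methionyl-tRNA synthetase, had 9.55, 9.62 and 9.71 on the controls and 9.39, 9.53 and 9.58 on the knockouts, a difference of -0.13 (SE 0.09, limma adjusted p = 0.758) but -0.04 by gene mean. *Rars*, the arginyl-tRNA synthetase, had 10.24, 10.18 and 10.33 on the controls and 10.27, 10.40 and 10.43 on the knockouts, a difference of 0.12 (SE 0.09, limma adjusted p = 0.766) but 0.03 by gene mean. *Rack1*, a scaffold on the small subunit, was not analysed here.

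Of 4 measured RNAs outside the ribosome that begin with a pyrimidine tract, 3 were lower and 1 higher, with a median of -0.16 at the representing probe sets and 0.00 by gene mean. *Naca*, a subunit of the complex that shields nascent chains at the ribosome, had 10.63, 10.63 and 10.64 on the controls and 10.34, 10.30 and 10.33 on the knockouts. These groups were far apart against their spread, with a difference of -0.31 (SE 0.07, limma adjusted p = 0.533) and -0.23 by gene mean. *Gas5*, a host gene of small nucleolar RNAs, had 10.06, 10.06 and 10.20 on the controls and 9.74, 9.88 and 10.04 on the knockouts, a difference of -0.22 (SE 0.11, limma adjusted p = 0.672) but -0.07 by gene mean. *Btf3*, the partner of *Naca*, was at 0.08 and *Nap1l1*, a histone chaperone gene, at -0.09 but 0.09 by gene mean.

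Markers of other brain cells were set beside these values, and 0 of them passed the threshold. In bulk tissue, fewer cells of a type and less RNA per cell cannot be told apart. The 5 of 9 meningeal and fibroblast markers measured were all lower, from -0.49 for *Slc47a1* to -0.00 for *Col3a1* (-0.18 by gene mean). *Col1a1* was at -0.03 but -0.30 by gene mean, and the median of the 5 was -0.18, or -0.25 by gene mean. These 5 had mean signals of 8.81 to 8.91 on the controls and 8.63 to 8.74 on the knockouts. Of the 6 of 11 astrocyte markers measured, *Gfap*, *S100b* and *Gja1* were lower (-0.35, -0.21 and -0.16) and *Glul*, *Sox9* and *Aldoc* higher by 0.06 or less (*Aldoc* -0.02 by gene mean), with mean signals of 11.19 to 11.29 on the controls and 11.11 to 11.18 on the knockouts. *Cd68*, the 1 of 15 microglial markers measured, had 8.71 to 9.03 and 7.76 to 8.69. The 2 of 8 leukocyte markers, *Ptprc* and *Lyz2*, had 8.38 to 8.58 and 7.60 to 8.39, ranges that just overlapped. Knockout 2 had the lowest *Cd68*, *Lyz2* and *Gfap*, an astrocyte marker, and without it the cytosolic median was -0.10 and the mitochondrial -0.10. The 2 endothelial and mural, 2 choroid plexus and ependymal and 1 oligodendrocyte markers measured had ranges that overlapped between groups, as did *Slc4a1* of red cells at 6.38 to 6.94 and 6.52 to 7.36, a difference of 0.24 (SE 0.25) but -0.36 (SE 0.07) by gene mean. The lowest of these signals was 6.38, where the table begins at 1.69, and the part of these cells in the ribosomal values was not tested.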

How the data were processed

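The authors deposited 1 table of log2 probe set signals with 2 decimals for 6 arrays. MAS5 is named, without a version, in the submitters' processing notes. The scaling, build and annotation behind it are not given in the sources used here. The log2 scale was read from the values, 1.69 to 14.41. Of 65535 probe sets, 6616 with IDs below the first annotated one were taken as control features and left out, and 53644 of the 58919 tested had 1 symbol in the platform annotation. Symbols were updated through RefSeq (GRCm38.p6): 4321 were current, 698 updated and 13 kept. Knockout minus control was fitted with limma 3.58.1 (lmFit, eBayes; R 4.3.3), two-sided, without further normalization; the fit was tested on simulated data. With 3 arrays a side, 0.1 is the smallest two-sided p of an exact permutation test, and the number of arrays limits the precision.

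The members and lists were chosen with earlier results of these data known, so lists are described by counts and medians without a test. Genes given in full were, in each group, the 5 with the smallest p and the 3 with the largest difference, any with a probe set past the threshold or a difference of at least 1 (there were 0), *Nvl*, *Rack1* and the 2 with the smallest p of each list; other genes named with values were chosen after their values were seen. Alternatives covered normalization, a filter on dim probe sets, variance model, array weights, replicate block, each array left out, gene summary and membership.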

Additional observations from a re-analysis of the deposited data

How the results depend on the processing

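The alternatives on gene span, mean signal, chromosome of the ID neighbours and current symbols were chosen after seeing the data. The median log2 difference of the cytosolic genes, -0.13, ran from -0.15 to -0.10 over all alternatives, with 18 to 21 lower in the 22 genes except where membership or the filter changed their number. It moved by more than the spread of the arrays without knockout 2 (range without 1 array -0.15 to -0.10) and with members by current symbol (-0.10), and the cause was not tested. That of the mitochondrial genes, -0.11, ran from -0.17 to -0.07, with -0.17 to -0.08 without 1 array. Under quantile normalization and median centring 21 of 22 cytosolic genes were lower, and 18 and 17 of 20 mitochondrial ones. Of the single genes, 15 of 22 cytosolic and 14 of 20 mitochondrial were lower in each of the 14 alternatives that apply to them. The gap between the groups ran from -0.07 to 0.02.

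Over all tested probe sets, trend and robust moderation gave 21 calls in place of 3, leaving out dim probe sets 19 (39277 tested), array weights 7, median centring 7, quantile normalization 6, a limit of 0.1 on the adjusted p 7 and the replicate block 0. Without 1 array there were 0 to 4, and 0 without any of control 1, control 2, control 3, knockout 1 or knockout 3. Same-numbered arrays did not deviate together (correlations 0.037, -0.070 and -0.100, and 1 of 6 arrays correlated best with its own number). Whether the numbers pair the samples in a way that affects fewer probe sets was not tested. With the replicate block the medians stayed at -0.13 and -0.11. Each number occurs in both groups, so the block changes the p-values but leaves the differences as they are. *Mrpl58* reversed to 0.0371 by gene mean and 0.0233 by the median of its probe sets.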
